A study of Mus musculus with 5 samples.

Results

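Pdha2, Utp14b, Rpl10l, Cetn1 and Prps1l1 are autosomal copies of the X-linked genes Pdha1, Utp14a, Rpl10, Cetn2 and Prps1, and together they form 5 pairs of a testis retrogene and its parent. The 10 genes were chosen by name and looked up by gene symbol among the 56324 rows of the deposited table of mouse germ cell messenger RNA. By symbol, 8 of the 10 were found, namely all 5 parents and the 3 copies Pdha2, Cetn1 and Prps1l1. Utp14b stood only in a row that it shares with Acsl3 (chr1:78657823-78707743, mm10), so no value of its own can be given. No row bore the symbol Rpl10l, but 1 row without a symbol lay at chr12:66283381-66284401, within the RefSeq gene Rpl10l at positions 66283379 to 66284401 of chromosome 12. That row is described below as the Rpl10l row and is kept out of the counts of members.

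The values compare spermatids, haploid cells that have completed meiosis and are being remodelled into sperm (3 samples), with spermatocytes, the cells in meiosis (2 samples). All 5 samples came from male C57Bl/6 mice aged 12 weeks, and no mutation or treatment is labelled in either group. Cells were fractionated by Sta-put, a sedimentation under gravity that sorts mainly by size, so each sample is an enriched fraction and may hold other testis cells. Whether the replicates are separate animals or pools is not stated in the labels, so every p-value here reflects the spread among these 5 samples alone, which may be technical. Each value is a normalized count, a gene's reads divided by a size factor for its library. Levels of different genes are compared per kilobase of each gene's longest annotated coding transcript, so a gene read mainly as a shorter transcript comes out too low.

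A retrogene arises when a messenger RNA is copied back into the genome, so it lacks the introns of its parent and sits at another place. In male meiosis the X and Y chromosomes are packed into the sex body and their transcription is shut down, a process called meiotic sex chromosome inactivation, and many X-linked genes remain low after it. Housekeeping genes on the X chromosome are well known for having autosomal copies that are read mainly in the testis, and these copies are commonly described as substitutes for the silenced parents.

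The 5 libraries held 62249782, 84361908 and 76907629 reads in spermatids and 52784231 and 80384019 reads in spermatocytes. Of 28370 genes with a mean of at least 10 over the 5 samples, 40.6% were higher and 36.5% were lower in spermatids, or 77.1% in all, at an adjusted p below 0.05 (limma with Benjamini-Hochberg adjustment over all genes tested), and 85.8% had no overlap between the groups' values. The median log2 fold change was 0.07 over all genes and 2.32 over the 828 X-linked genes, of which 63% were higher and 21% lower in spermatids. Of the 27478 autosomal genes tested, 39.9% were higher and 37% lower. All 8 spermatid markers were higher in spermatids, with sums of 1590729, 558104 and 535343 in spermatids against 16161 and 12456 in spermatocytes, and replicate 1 of the spermatids stood far above the other spermatids. Of 8 spermatocyte markers, 4 were lower, 2 were higher and 2 did not pass the test. Their sums were 25602, 22089 and 18216 in spermatids against 57897 and 52998 in spermatocytes. All 10 Sertoli cell markers were lower in spermatids, with sums of 986, 951 and 991 in spermatids against 12768 and 17557 in spermatocytes, and all 5 Leydig cell markers found were lower, with sums of 104, 162 and 281 against 2237 and 2761. Of 10 markers of myoid, endothelial, macrophage and blood cells, 7 were higher and 1 lower in spermatids (sums of 2364, 3152 and 2902 against 608 and 505), and of 8 spermatogonial markers 4 were higher and 2 lower (sums of 1589, 2088 and 1884 against 4603 and 4747). No marker was at 0 throughout a group. The part of these cells in the values of the parents, which most cell types express, was not tested. Fewer cells of a type and less RNA per cell cannot be told apart in such bulk samples.

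The gene models showed the retrogene structure in all 5 pairs. Each copy had its coding sequence in 1 exon, whereas the coding sequences of Pdha1, Utp14a, Rpl10, Cetn2 and Prps1 were spread over 11, 15, 6, 5 and 7 exons in GENCODE vM21. Aligned coding bases were identical between copy and parent for 75.6% in Pdha2 and Pdha1, 77.6% in Utp14b and Utp14a, 84.8% in Rpl10l and Rpl10, 78.4% in Cetn1 and Cetn2, and 86.9% in Prps1l1 and Prps1. No stretch of 50 bases was shared between the transcripts of a copy and its parent in any of the 5 pairs.

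The loss of introns and the divergence that lets reads be told apart can be read from the 80 coding bases around a splice junction of the parent, 40 on each side. In the parent the 40 bases on the left and the 40 on the right lie in different exons, and in the copy the 80 bases are contiguous. Capitals mark the bases that differ between copy and parent, 24 of 80 for Pdha2 and Pdha1, 12 for Utp14b and Utp14a, 11 for Rpl10l and Rpl10, and 7 for Prps1l1 and Prps1 (GENCODE vM21 transcripts on GRCm38, each 5′ to 3′ on the gene's own strand). The sequences occupy chr3:141211586-141211665 (minus strand) for Pdha2 and chrX:160132203-160133212 (minus strand, with an intron of 930 bases) for Pdha1, and chr1:78664521-78664600 (plus strand) for Utp14b and chrX:48258376-48259762 (plus strand, intron of 1307 bases) for Utp14a. They occupy chr12:66284236-66284315 (minus strand) for Rpl10l and chrX:74271679-74271839 (plus strand, intron of 81 bases) for Rpl10, and chr12:34984970-34985049 (plus strand) for Prps1l1 and chrX:140456824-140465270 (plus strand, intron of 8367 bases) for Prps1.
Pdha2: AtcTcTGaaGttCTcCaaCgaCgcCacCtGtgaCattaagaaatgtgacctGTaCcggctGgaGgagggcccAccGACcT
Pdha1: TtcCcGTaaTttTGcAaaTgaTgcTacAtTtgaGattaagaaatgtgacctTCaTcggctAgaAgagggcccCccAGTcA
Utp14b: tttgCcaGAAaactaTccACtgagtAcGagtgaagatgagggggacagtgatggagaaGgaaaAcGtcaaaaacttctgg
Utp14a: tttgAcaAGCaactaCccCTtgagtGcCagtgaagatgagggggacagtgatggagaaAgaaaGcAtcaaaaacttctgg
Rpl10l: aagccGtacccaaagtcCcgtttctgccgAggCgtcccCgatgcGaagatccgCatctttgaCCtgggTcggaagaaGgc
Rpl10: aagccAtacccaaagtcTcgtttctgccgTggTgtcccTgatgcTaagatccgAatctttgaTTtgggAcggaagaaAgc
Prps1l1: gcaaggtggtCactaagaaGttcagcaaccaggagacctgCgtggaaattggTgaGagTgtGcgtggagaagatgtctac
Prps1: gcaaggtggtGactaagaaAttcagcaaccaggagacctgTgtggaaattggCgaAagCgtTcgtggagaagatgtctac

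The copies with a row of their own were abundant in both cell types. In the 4 pairs with both values the parent was far lower than its copy. The values of Pdha2, Cetn1 and Prps1l1 lay between 17896 and 53084 in all 5 libraries, and their group means exceeded those of 96.3% to 99.4% of the genes tested, whereas the values of the 5 parents lay between 18.9 and 637. The means of Cetn2 and Prps1 exceeded those of 63.9% and 65.3% of the genes tested in spermatids and 45.0% and 44.6% in spermatocytes, and those of Pdha1, Utp14a and Rpl10 exceeded 25.6% to 36.3% in either cell type. Between the cell types, 0 of the 3 copies passed the test, against 77.1% of all genes tested. Of the 5 parents, 2 were higher in spermatids, Cetn2 and Prps1, against 40.6% of all genes and 63% of X-linked genes tested. The other 3 parents, Pdha1, Utp14a and Rpl10, did not pass. No parent was lower, against 36.5% of all genes and 21% of X-linked genes tested. There was no overlap between spermatids and spermatocytes for 4 of the 8 members, Pdha2, Prps1l1, Cetn2 and Prps1, against 85.8% of all genes tested. For Cetn1 and Prps1l1 the direction turns when libraries are brought to equal totals, as given below.

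**Figure D1:**
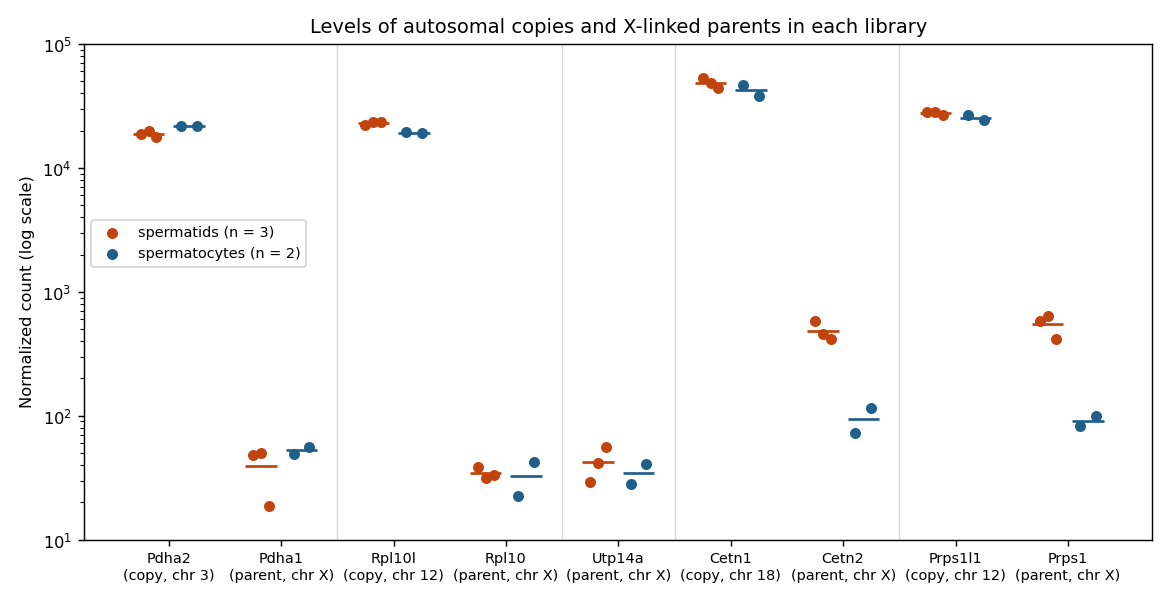
Normalized count of each copy and its parent in each library, on a log scale, with spermatids in orange (n = 3) and spermatocytes in blue (n = 2). Points are libraries and lines are group means, and Rpl10l is the row matched by position. Utp14b, which has no row of its own, is not drawn. The copies lie at 17896 or above in every library, and Cetn2 and Prps1 lie at 416 to 637 in spermatids and at 72.2 to 115 in spermatocytes.

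Pdha2 and Pdha1 encode the alpha subunit of pyruvate dehydrogenase, the first enzyme of the mitochondrial complex that turns pyruvate into acetyl coenzyme A. Pdha2 (chr3:141210004-141212355) had 18720, 20035 and 17896 normalized counts in spermatids, against 21919 and 21593 in spermatocytes. All spermatid libraries lay below both spermatocyte libraries, yet the log2 fold change of -0.21 ± 0.09 (SE) did not pass the test (limma, adjusted p = 0.065). Pdha1 (chrX:160122217-160138415) had 48.1, 50.5 and 18.9 in spermatids, against 49.5 and 56.3 in spermatocytes, from 18 to 84 reads a library. Its groups overlapped, replicate 3 of the spermatids was the low one, and its log2 fold change of -0.54 ± 0.48 did not pass (limma, adjusted p = 0.33). With libraries brought to equal totals, which lowers the median log2 fold change of all genes to -0.57, Pdha2 came to -0.85 and Pdha1 to -1.18, both then called lower. The row of Pdha1 overlaps that of Map3k15, a kinase gene, by 1135 bases. Matched on either strand, 16.9% of the 50-base windows of the Pdha1 transcript occur in another gene, most of them in Map3k15. Map3k15 itself had 65.1, 158 and 70.2 in spermatids, against 12.9 and 32.2 in spermatocytes. The share of the Pdha1 values that comes from Map3k15 was not tested.

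Of the 13 other genes of the complex and its regulators, 4 were higher and 5 lower in spermatids, with a median log2 fold change of 0.11 (all genes, 0.07). The 2 most abundant were both higher. Mpc2, a subunit of the carrier that takes pyruvate into mitochondria, averaged 31243 in spermatids and 13694 in spermatocytes (log2 fold change 1.19 ± 0.08; limma, adjusted p = 1.44e-05). Pdk2, a kinase that switches the complex off, averaged 16580 in spermatids and 7723 in spermatocytes (1.10 ± 0.09; limma, adjusted p = 3.43e-05). Among genes chosen after their values were seen, the X-linked kinase Pdk3 (4.24) and the autosomal phosphatase Pdp1 (2.94), which switches the complex on, were also higher. Also chosen after its values were seen, Pdhb, the beta subunit that pairs with the alpha subunit, was lower by a small amount (-0.32), as was Dlat, the acetyltransferase of the complex (-0.39), chosen in the same way, and the calls were lost for Pdhb without either spermatocyte library and for Dlat without spermatocytes replicate 1. The number of lower genes was 2 without spermatocytes replicate 1 and 3 without spermatocytes replicate 2, and with equal library totals it was 8.

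Rpl10l and Rpl10 encode a protein of the large ribosomal subunit that is added late in its assembly. The Rpl10l row had 22360, 23333 and 23446 normalized counts in spermatids, against 19367 and 19205 in spermatocytes. The groups did not overlap and the row was higher in spermatids by a log2 fold change of 0.26 ± 0.08 (limma, adjusted p = 0.021). However, the row came to -0.39 with equal library totals and to -0.49 with quantile normalization, and under both it was called lower. It also no longer passed without any 1 of 4 of the 5 libraries, spermatids replicates 2 and 3 and both spermatocyte replicates. Rpl10 (chrX:74270816-74273135) had 38.8, 31.7 and 33.5 in spermatids, against 22.6 and 42.2 in spermatocytes, from 21 to 63 reads. The spermatocyte libraries lay on either side of all spermatid libraries, and the log2 fold change of 0.15 ± 0.37 did not pass (limma, adjusted p = 0.72). Of the 50-base windows of the Rpl10 transcript, 85.4% occur in other genes, against 7.6% for Rpl10l. Those other genes number 15, and the pseudogene Rpl10-ps3 holds more of the windows than any other. How reads that match several genes were counted is not given in the sources used here, so the Rpl10 level is uncertain.

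Per kilobase, Rpl10 averaged 40.6 in spermatids and 37.9 in spermatocytes, below every one of 41 listed large subunit protein genes in both cell types. That list leaves out the X-linked parents Rpl36a and Rpl39 and the copy Rpl39l, which stand among the other pairs. Rpl36a was lower still, at 10.7 in spermatids and 6.12 in spermatocytes, and Rpl39 stood at 97.4 in spermatids and 75.6 in spermatocytes. The lowest of those 41 was Rpl5 (longest transcript 2045 bases) at 132 in spermatids and Rpl37 (835 bases) at 93.1 in spermatocytes. The medians were 977 in spermatids and 1149 in spermatocytes. The Rpl10l row, at 22528 in spermatids and 18852 in spermatocytes, lay above all 41, of which Rpl8 was the highest at 17728 in spermatids and 17632 in spermatocytes, but below Rpl39l at 28458 in spermatids and 22006 in spermatocytes. The median share of windows found in other genes was 47.9% over the 41. The 18 genes with more than 50% of their windows shared had a median level of 1082 in spermatids and 1421 in spermatocytes, against 787 and 830 for the other 23. Between cell types, 9 of the 41 were higher and 8 lower in spermatids, with a median log2 fold change of 0.10. The most abundant by count, Rplp0, a protein of the ribosomal stalk, and Rpl8 did not pass (0.10 ± 0.13 and 0.01 ± 0.08; limma, adjusted p = 0.51 and 0.94). With equal library totals 1 was higher and 23 lower, and the number higher was 5 without spermatids replicate 3 and 3 without spermatocytes replicate 2.

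**Figure D2:**
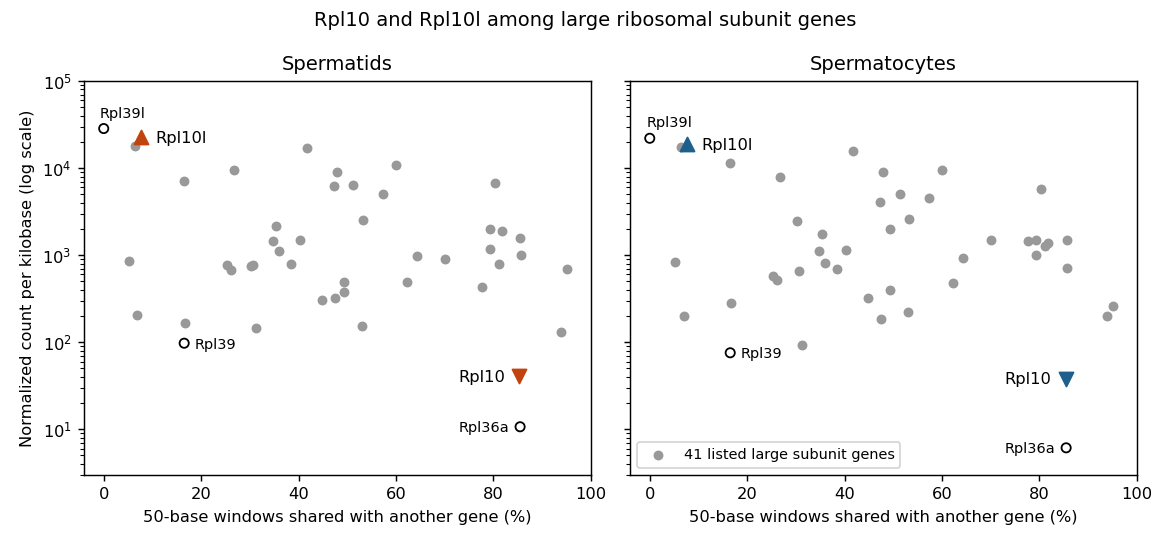
Level per kilobase (log scale) against the share of 50-base windows that occur in another gene, for Rpl10l, Rpl10, 41 listed large subunit protein genes (grey) and Rpl36a, Rpl39 and Rpl39l from the other pairs (open circles), in spermatids on the left and spermatocytes on the right. Each point is the mean of a group. In both panels Rpl10l lies above and Rpl10 below the 41, Rpl39l lies above Rpl10l, and Rpl36a, with 85.5% of its windows shared against 85.4% for Rpl10, lies below Rpl10.

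Of 5 genes known, largely from yeast, for the late steps in which this protein joins the large subunit, 4 were lower and 1 was higher in spermatids, with a median log2 fold change of -1.07. Sbds, which helps to release a factor that keeps the ribosomal subunits apart, was lower (-1.33), and so was that factor, Eif6 (-1.14, chosen after its values were seen). Eftud1, the enzyme that acts with Sbds, was higher (1.82).

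Utp14a and Utp14b encode a component of the small subunit processome, the particle that cuts and folds the precursor of the small subunit's RNA. Loss of Utp14b underlies the mouse mutation jsd, juvenile spermatogonial depletion, in which spermatogenesis stops. Utp14a (chrX:48256875-48282449) had 29.5, 41.6 and 55.5 normalized counts in spermatids, against 28.0 and 40.9 in spermatocytes, from 19 to 61 reads. The groups overlapped, and the log2 fold change of 0.26 ± 0.38 did not pass (limma, adjusted p = 0.54). Its row overlaps that of 9530027J09Rik, which had 122, 153 and 101 in spermatids, against 12.9 and 12.1 in spermatocytes, and a row without a symbol. The share of Utp14a values from these rows was not tested. The row shared by Acsl3, which activates long-chain fatty acids, and Utp14b had 792, 829 and 766 in spermatids, against 4492 and 4245 in spermatocytes. It was lower in spermatids by a log2 fold change of -2.46 ± 0.10 (limma, adjusted p = 1.87e-06), but which of the 2 genes this reflects cannot be told apart.

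Of 24 other processome genes found, 5 were higher and 8 lower in spermatids, with a median log2 fold change of 0.00. Utp18, the most abundant, averaged 8192 in spermatids and 8477 in spermatocytes, and Nop58, a core protein of the particles that methylate ribosomal RNA, averaged 7624 in spermatids and 5955 in spermatocytes. Neither passed (log2 fold change -0.05 and 0.35; limma, adjusted p = 0.66 and 0.052). Wdr75, chosen after its values were seen, had the highest log2 fold change of the list (2.31). With equal library totals 3 were higher and 14 lower, and without spermatocytes replicate 2 the number lower was 5.

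Cetn1 and Cetn2 encode centrins, small calcium-binding proteins of centrioles and of the basal bodies that anchor cilia and the sperm tail. Cetn1 (chr18:9615525-9619480) had 53084, 48486 and 44166 normalized counts in spermatids, against 46655 and 38171 in spermatocytes. The groups overlapped, and the log2 fold change of 0.20 ± 0.12 did not pass (limma, adjusted p = 0.18), while with equal library totals it was -0.45 and was called lower. Cetn2 (chrX:72913532-72918412) had 586, 457 and 416 in spermatids, against 72.2 and 115 in spermatocytes. Every spermatid library lay above both spermatocyte libraries. Cetn2 averaged 486 ± 88.7 in spermatids (SD, n = 3) and 93.4 ± 30.0 in spermatocytes (SD, n = 2), which is 5.21-fold higher, a log2 fold change of 2.39 ± 0.26 (limma, adjusted p = 0.000157), or 1.75 with equal library totals. Neither transcript shared a 50-base window with any other gene, and neither row overlapped another.

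Of 9 other centrins and centrin partners, 1 was higher and 5 were lower in spermatids, with a median log2 fold change of -0.94, and without spermatids replicate 3 the number higher was 2. Rad23b, a DNA repair protein that works with a centrin partner, was the higher one, averaging 29731 in spermatids and 15450 in spermatocytes (0.92), and it no longer passed with equal library totals. Cetn4, a centrin of ciliated cells, averaged 18036 in spermatids and 14175 in spermatocytes and did not pass (0.33; limma, adjusted p = 0.076). Cetn3, another centrin of the centriole and chosen after its values were seen, did not pass either (-0.07; limma, adjusted p = 0.59).

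Prps1l1 and Prps1 encode phosphoribosyl pyrophosphate synthetase, which makes the activated ribose from which purine, pyrimidine and pyridine nucleotides are built. Prps1l1 (chr12:34984759-34986436) had 28306, 28379 and 26588 normalized counts in spermatids, against 26511 and 24213 in spermatocytes. The groups did not overlap, by a narrow margin, and the log2 fold change of 0.13 ± 0.09 did not pass (limma, adjusted p = 0.21), while with equal library totals it was -0.52 and was called lower. Prps1 (chrX:140456603-140476139) had 585, 637 and 417 in spermatids, against 82.9 and 99.2 in spermatocytes. Every spermatid library was again above both spermatocyte libraries. Prps1 averaged 546 ± 115 in spermatids (SD, n = 3) and 91.1 ± 11.5 in spermatocytes (SD, n = 2), which is 6.00-fold higher, a log2 fold change of 2.55 ± 0.23 (limma, adjusted p = 6.39e-05), or 1.91 with equal library totals. Of the windows of the Prps1 transcript 10.1% occur in Prps1l3, and none of those of Prps1l1 occur in another gene.

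Of 10 other genes that make or use phosphoribosyl pyrophosphate, 1 was higher and 6 were lower in spermatids, with a median log2 fold change of -0.82. Aprt, which salvages adenine, averaged 12924 in spermatids and 14618 in spermatocytes and did not pass (-0.18; limma, adjusted p = 0.12). Prpsap1, a regulatory partner of the synthetase, averaged 3489 in spermatids and 4737 in spermatocytes and was lower (-0.44). Among genes chosen after their values were seen, the X-linked isoform Prps2 was lower (-1.33), and Umps, which completes uridine monophosphate, was the higher one (1.40).

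Set against other genes of the X chromosome, Cetn2 and Prps1 were in the middle. Of the 828 X-linked genes tested, 50.6% had a lower log2 fold change than Cetn2 and 52.2% a lower one than Prps1. For Pdha1, Rpl10 and Utp14a the shares were 24.3%, 30.3% and 31.5%. Among 27478 autosomal genes tested, whose median log2 fold change was 0.03, 44.9% had a lower log2 fold change than Pdha2, 54.5% than the Rpl10l row, 53.5% than Cetn1 and 51.9% than Prps1l1. In size, without regard to sign, the changes of these copies were small, exceeding those of 8.7%, 10.7%, 8.46% and 5.3% of autosomal genes in the same order.

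The ratio of copy to parent, per kilobase of transcript, was far above 1 in every library for the 4 pairs with both values. Pdha2 stood at 472, 480 and 1149 times Pdha1 in spermatids and 536 and 464 times in spermatocytes, so replicate 3 of the spermatids, where Pdha1 had 18 reads, was the high one. The Rpl10l row stood at 482, 615 and 584 times Rpl10 in spermatids and 716 and 380 times in spermatocytes, with overlapping groups. Cetn1 stood at 93.4, 109 and 109 times Cetn2 in spermatids and 667 and 343 times in spermatocytes. Both spermatocyte libraries were above all spermatid libraries for this ratio. Prps1l1 stood at 56.8, 52.2 and 74.7 times Prps1 in spermatids and 375 and 286 times in spermatocytes, again with no overlap. The ratios of the group means ran from 59.6 to 584 over the 4 pairs in spermatids and from 326 to 498 in spermatocytes.

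The log2 ratio of copy to parent changed by -2.19 for Cetn1 and Cetn2 and by -2.42 for Prps1l1 and Prps1, spermatids minus spermatocytes. It changed by 0.34 for Pdha2 and Pdha1 and by 0.10 for the Rpl10l row and Rpl10. In an exact two-sided permutation test over the 10 arrangements of the samples, p was 0.2 for each of the pairs Cetn1 and Prps1l1 and 0.8 for each of the pairs Pdha2 and Rpl10l, or 0.4 and 0.8 after Benjamini-Hochberg adjustment over the 4 pairs. The smallest p that 3 against 2 samples can give is 0.2. Without replicate 3 of the spermatids the change for Pdha2 was -0.07, and without replicate 2 of the spermatocytes that for the Rpl10l row was -0.34.

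**Figure D3:**
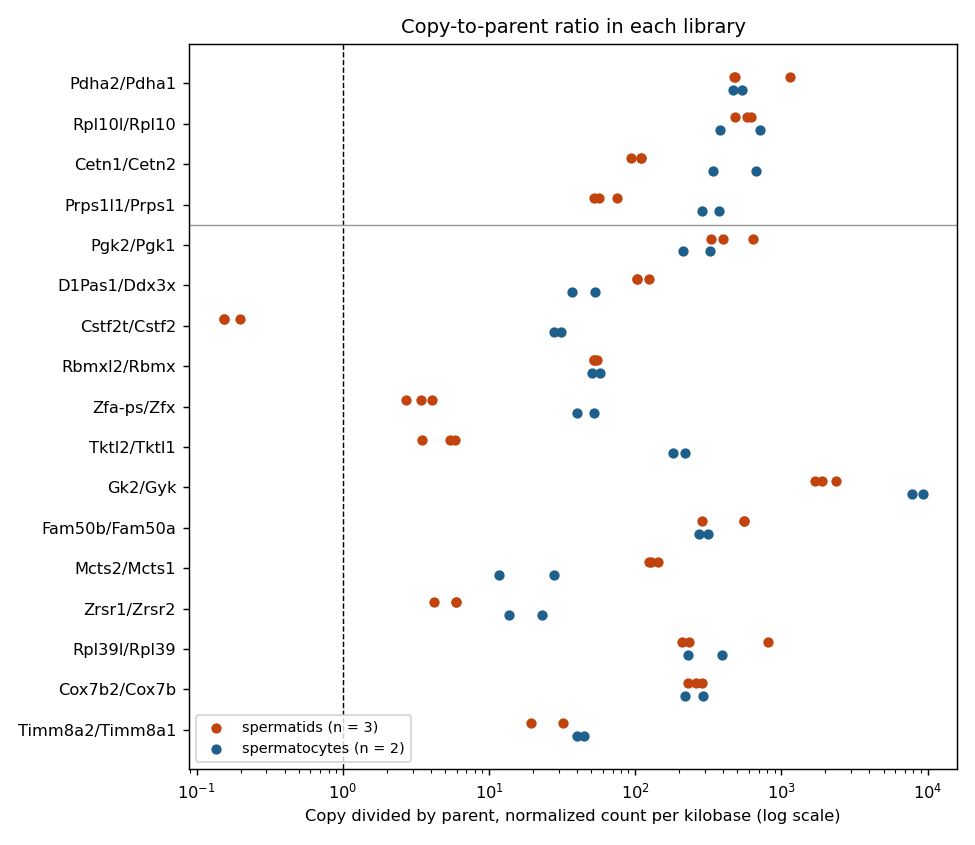
Copy divided by parent, per kilobase of transcript, in each library on a log scale, with spermatids in orange above spermatocytes in blue. The 4 pairs described here are above the grey line and 13 other pairs below it, the dashed line marks equal levels, and spermatid replicate 1 is not drawn for Timm8a2, whose parent had 0 reads there. For Cetn1 and Prps1l1 the spermatid ratios, 52.2 to 109, lie below the spermatocyte ratios, 286 to 667.

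Other pairs of an autosomal copy and an X-linked parent are known, and of 15 listed 13 had both rows. Their ratios of group means ran from 0.167 to 1944 in spermatids and from 17.0 to 8456 in spermatocytes. In 12 of the 13, the copy exceeded its parent per kilobase in all 5 libraries, with Cstf2t and Cstf2, which encode a factor of messenger RNA 3′ end formation, as the exception. Cstf2t averaged 1675 in spermatids and 6937 in spermatocytes, whereas Cstf2 averaged 10658 in spermatids and 251 in spermatocytes, so the ratio was 0.167 in spermatids and 29.3 in spermatocytes. The ratio was lower in spermatids for 6 of the 13 pairs, 5 of them without overlap, and higher for 7, 3 of them without overlap.

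Of 14 other parents found, 13 were tested and Rpl36a, of the large ribosomal subunit, fell below the filter. Of the 13, 7 were higher and 2 lower in spermatids, with a median log2 fold change of 0.94. Over the 828 X-linked genes tested, 63% were higher and 21% lower, with a median of 2.32. Cstf2 (5.40), Tktl1, a transketolase relative (4.34), Gyk, glycerol kinase (3.15), and Zfx, a zinc finger transcription factor (2.12), were higher. Pgk1, phosphoglycerate kinase of glycolysis (1.57), Zrsr2, a splicing factor (1.32), and Rbmx, an RNA-binding protein (0.94), were higher as well, but with equal library totals Zrsr2 (0.68; limma, adjusted p = 0.078) and Rbmx (0.30; limma, adjusted p = 0.32) no longer passed. Mcts1, a translation factor (-2.01), and Ddx3x, an RNA helicase (-0.57), were lower, and the call for Ddx3x was lost without spermatids replicate 2 or 3 or without spermatocytes replicate 2. Without spermatids replicate 1 the number lower was 4. Fam50a (0.28), Rpl39 (0.19), Cox7b (-0.68) and Timm8a1 (-3.22 ± 1.54, with 0 reads in replicate 1 of the spermatids) did not pass. Cox7b missed narrowly (limma, adjusted p = 0.053) and was called lower under 8 of the alternatives, among them edgeR and DESeq2 on reads, and Timm8a1 under 4, among them without spermatids replicate 1 (-1.50).

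All 14 other copies found passed the test, 8 higher and 6 lower in spermatids, where 77.1% of all genes passed, and their median log2 fold change was 0.55. Ubl4b, a ubiquitin-like protein (5.71), Pgk2, the sperm form of phosphoglycerate kinase (2.31), Gk2 (1.13), Rbmxl2 (0.92), Fam50b (0.88), Mcts2 (0.82), D1Pas1, the testis copy of Ddx3x (0.73, but -0.00082 with quantile normalization), and Rpl39l (0.37, but -0.27 with equal library totals) were higher. With equal library totals 3 of these 14 copies were higher and 7 lower. Rbmxl2 (0.28), Fam50b (0.23), Mcts2 (0.17) and D1Pas1 (0.08) then no longer passed. Timm8a2 (-2.08), Cstf2t (-2.05), Zfa-ps (-1.62), Tktl2 (-0.99), Cox7b2 (-0.66) and Zrsr1 (-0.41) were lower. The call was lost for Rpl39l without spermatocytes replicate 2, and for Zrsr1 without spermatids replicate 3 or spermatocytes replicate 1.

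**Figure D4:**
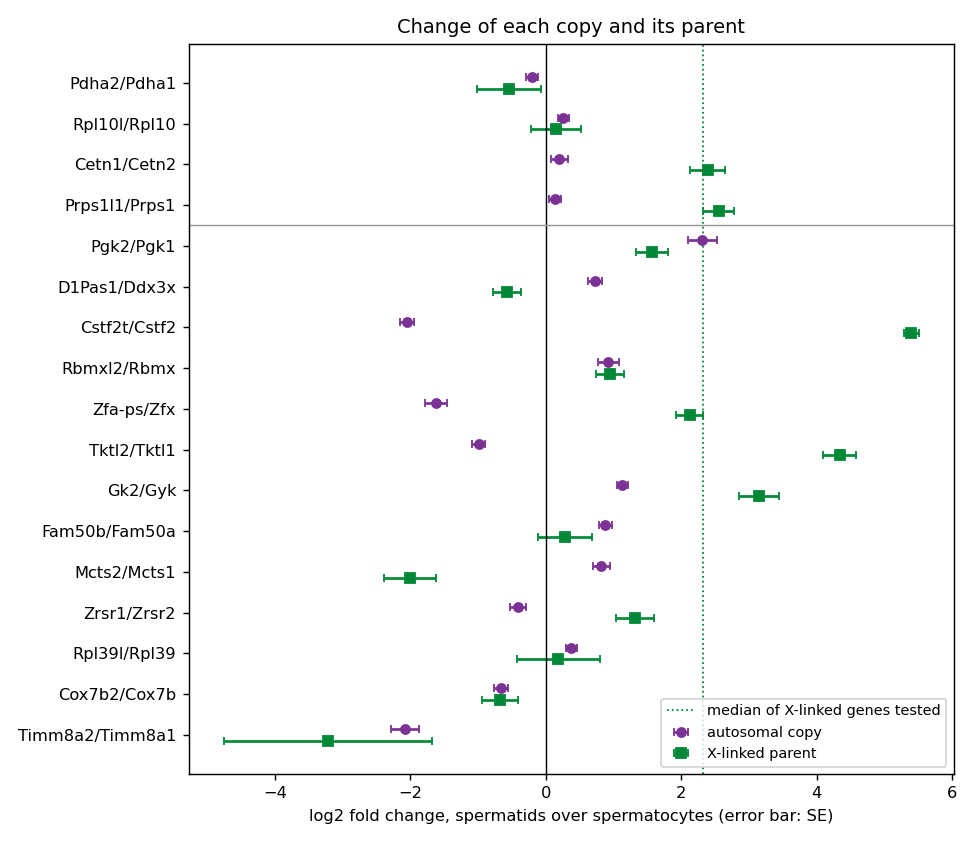
Log2 fold change, spermatids over spermatocytes, of each autosomal copy (purple circles) and X-linked parent (green squares), with the standard error as bars. The 4 pairs described here stand above the grey line, 13 other pairs below it, and the dotted line is the median of X-linked genes, 2.32. Cetn2 at 2.39 and Prps1 at 2.55 lie beside that median while their copies lie at 0.20 and 0.13.

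The sequence before the transcription start differed between Pdha2 and Pdha1 in its content of CG dinucleotides, the usual sites of DNA methylation. In RefSeq windows of 300 bases around the start (GRCm38.p6), Pdha2 held 4 and Pdha1 21, against a median of 7 over 32851 windows. Of all windows, 38.0% held 4 or fewer. Rpl10l held 13 and Utp14b 40, and their parents Rpl10 and Utp14a held 17 and 21. The RefSeq gene Utp14b begins at position 78657825 of chromosome 1, and the row shared with Acsl3 begins at 78657823. The window of Utp14b may therefore not belong to Utp14b alone. Among the other copies Pgk2 also held 4, Ubl4b 1, Gk2 5, and Fam50b 2 and 4 in its windows, while the rest held 10 to 42. Low values also occurred among the other parents, with 2 and 3 for Mcts1, 5 for Cox7b, and 5 and 39 for Zfx. The rest of those parents held 11 to 34. Cetn2 had 19 and Prps1 17, and no window was available for their copies Cetn1 and Prps1l1. The 100 bases just before the start are printed for Pdha2 (chr3:141212356-141212455, minus strand, 4 CG) and Pdha1 (chrX:160138431-160138530, minus strand, 9 CG), since they show the contrast within 1 pair, with each CG in capitals. Methylation was not measured here.
Pdha2: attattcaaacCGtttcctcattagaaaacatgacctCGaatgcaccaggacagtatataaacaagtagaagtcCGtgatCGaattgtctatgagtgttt
Pdha1: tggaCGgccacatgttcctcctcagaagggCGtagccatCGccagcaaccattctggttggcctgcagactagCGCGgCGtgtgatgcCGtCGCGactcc

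The genes with the most similar profiles were picked among 11917 named genes with a mean of at least 100, by Euclidean distance between log2 values over the 5 libraries after each gene's mean was subtracted. For Prps1l1 these were Chrac1 (distance 0.030) and Arl3 (0.044), for Cetn1 Cmtm2b (0.055) and Spc25 (0.057), for Pdha2 Stag1 (0.058) and Tti1 (0.062), and for the Rpl10l row Nr2c1 (0.035) and Dhrs4 (0.043). For Cetn2 they were Nr3c2 (0.17) and Decr2 (0.19), and for Prps1 Cdh12 (0.21) and Chadl (0.22). Among the low parents they were Prelp (0.16) and Myo6 (0.24) for Rpl10, and Hapln2 (0.21) and Map4k2 (0.23) for Utp14a. Pdha1 had the most distant neighbours, Atg16l1 (0.42) and Meiob (0.47).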

How the data were processed

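Polyadenylated RNA of 3 spermatid and 2 spermatocyte samples was sequenced from stranded libraries, per the labels' protocols. The deposited signal is a gene's count divided by a size factor for its library, per the file headers. The submitters' processing notes list FastQC, Picard, SAMtools, STAR 2.4.0, DESeq and mm10 without their roles. For counting, the program, the use of strand and the handling of multi-mapping reads are not given in the sources used. Whole reads were recovered for 100% of values within 0.001. More genes had 2 reads than 1 in every library, so reads may not be independent molecules. The members and gene lists were chosen with earlier results of these data known.

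Groups came from the cell type labels, with replicates numbered in accession order. Genes with a mean of at least 10 were tested with limma 3.58.1 (R 4.3.3) on log2(value + 1), with eBayes fitted to a trend of variance on mean and Benjamini-Hochberg adjusted p-values called below 0.05, a scale on which the pseudocount shrinks the fold changes of low genes. Recovered reads were tested with edgeR 4.0.16 and DESeq2 1.42.0 and the authors' size factors, and edgeR called 11537 genes higher and 10394 lower, limma 11512 and 10359. The limma step was tested on simulated counts. Lengths, coding exons and windows came from the longest protein-coding transcript of each gene in GENCODE vM21, and promoters from RefSeq. The shares of windows found in other genes count matches on either strand. Where a gene had no such transcript, its length was that of its longest transcript of any kind. Which transcripts the reads came from was not tested. Changes of the copy-to-parent ratio were tested by exact permutation. The test had been planned over 5 pairs and was made over 4, since Utp14b had no row of its own. Named genes were the members, the 2 most abundant of each list, all other parents and copies found, and the 2 most similar profiles of each member. Other names are said to be chosen after their values were seen. Alternatives were other pseudocounts, filters, scalings, eBayes settings and tools, and leaving out each library. Summaries used Python 3.11.15, pandas 2.3.3, numpy 2.4.6, scipy 1.17.1 and matplotlib 3.10.9.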

Additional observations from a re-analysis of the deposited data

How the results depend on the processing

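Cetn2 and Prps1 were called higher in spermatids under all 15 alternatives, with log2 fold changes of 1.75 to 2.72 and 1.91 to 2.74 and adjusted p of at most 0.00161 and 0.0014. Of 1360 values under alternatives, 1220 kept their direction and their side of the threshold or stayed within 1.5 times the count, and 50 changed sign. Scaling moved most. With equal library totals the median log2 fold change of all genes was -0.57 and with quantile normalization -0.42. With equal totals the log2 fold change was -0.85 for Pdha2, -0.45 for Cetn1, -0.52 for Prps1l1 and -0.39 for the Rpl10l row. So 3 of the 3 copies found by symbol, and the Rpl10l row, were called lower. With the same scaling it was -1.18 for Pdha1, called lower as 1 of the 5 parents, -0.36 for Utp14a and -0.47 for Rpl10. It was -0.30 for Nop58, -0.64 for Rpl8, -0.54 for Rplp0, -0.31 for Cetn4, -0.35 for Fam50a, -0.45 for Rpl39 and -0.27 for Rpl39l. Utp18 (-0.70), Cetn3 (-0.71) and Aprt (-0.83) were called lower with equal totals. They were also called lower with quantile normalization (-0.77, -0.81 and -0.92). Quantile normalization gave -0.93 for Pdha2, -0.52 for Cetn1, -0.60 for Prps1l1, -0.49 for the Rpl10l row (3 of 3 copies found by symbol and the Rpl10l row called lower), -0.092 for Rpl10, -0.33 for Nop58, -0.75 for Rpl8, -0.63 for Rplp0, -0.43 for Cetn4, -0.11 for Fam50a, -0.15 for Rpl39, -0.00082 for D1Pas1 and -0.38 for Rpl39l. It gave changes of the log2 ratio of -0.017 for Pdha2 to Pdha1, -0.40 for Rpl10l to Rpl10, -0.23 for Rpl39l to Rpl39 and -0.31 for Cox7b2 to Cox7b. A pseudocount of 10 gave ratio changes of 0.013 for Rbmxl2 to Rbmx, -0.057 for Cox7b2 to Cox7b and -0.041 for Timm8a2 to Timm8a1.

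Counts moved as well. With equal totals, the pyruvate dehydrogenase list had 8 lower, the processome list 3 higher and 14 lower, the large subunit list 1 higher and 23 lower, the centrin list 0 higher (Rad23b then missed the threshold) and 8 lower, the other parents 4 lower and the other copies 3 higher. With quantile normalization, the processome list had 3 higher and 14 lower, the large subunit list 1 higher and 20 lower, the centrin list 0 higher and the other copies 3 higher. With TMM factors 2 centrin genes were higher, and without a trend 3 large subunit genes were higher and the Rpl10l row missed the threshold (0.26, limma adjusted p = 0.12). The other parents had 4 lower with edgeR and with a pseudocount of 10, and 1 lower with a mean of at least 100, where the pyruvate dehydrogenase list had 3 lower. Over all genes, the number lower was 17263 with no filter and 6029 with a mean of at least 100, since other numbers of genes were tested. For the scalings, tools and trend the cause was not tested.

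Without 1 library at a time, the log2 fold change ran from 0.24 to 0.28 for the Rpl10l row (lost in 4 of 5 cases), -0.28 to 0.59 for Rpl10, -0.00103 to 0.53 for Utp14a, -0.068 to 0.49 for Fam50a, -0.15 to 0.79 for Rpl39, -0.030 to 0.030 for Rpl8, -0.0082 to 0.20 for Rplp0 -0.12 to 0.0028 for Utp18 and -0.15 to 0.017 for Cetn3. The ratio change ran from -0.070 to 0.55 for Pdha2 to Pdha1, -0.34 to 0.55 for Rpl10l to Rpl10, -0.11 to 0.073 for Rbmxl2 to Rbmx, -0.42 to 0.56 for Rpl39l to Rpl39, -0.19 to 0.22 for Cox7b2 to Cox7b and -0.79 to 2.29 for Timm8a2 to Timm8a1. Counts ran from 2 to 5 lower in the pyruvate dehydrogenase list, 5 to 8 lower in the processome list, 3 to 11 higher in the large subunit list, 1 to 2 higher in the centrin list and 1 to 4 lower among the other parents. Where 1 spermatocyte library was left, it was assumed to vary like the spermatids.

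No paired analysis was possible because the labels carry no replicate numbers that both groups share. Pdha1, Utp14a and Rpl10 rest on 18 to 84 reads a library, and the size of change that such a depth allows to be called was not tested. Groups of 2 and 3 samples are too small for a test of outlying libraries.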
